A study of Mus musculus with 11 samples.

Results

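The high mobility group (HMG) alarmin genes and the gene of their receptor RAGE were examined in mouse corneas after experimental dry eye. The group was chosen by gene symbol and holds 4 of the 248 genes on the NanoString mouse Inflammation panel, Hmgb1, Hmgb2, Hmgn1 and Ager (written HMGB1, HMGB2, HMGN1 and AGER in the tables), and all 4 were present in both deposited tables. Female C57BL/6J mice were kept for 5 days under desiccating stress, which combines dry moving air with scopolamine, a blocker of tear secretion taken up by drinking. During this time they received eye drops of vehicle (3 samples), of pan, an agonist of all Trk neurotrophin receptors (4 samples), or of C1, an agonist of TrkC (4 samples), both agonists at 10 uM. One age label reads 3 months for all 11 samples, while a second gives 22 to 24 months for all C1 samples and for pan replicate 4, and 2 to 3 months for the other 6. The methods of the study describe young mice only, of less than 3 months. This goes against the older label and also differs from the label of 3 months. Which age is right was not tested. No unstressed cornea is among the samples, so all values are those of stressed tissue. The labels name cornea as the tissue and cornea epithelia as the cells, but the panel holds no keratin or other defining gene of corneal epithelium against which this could be checked. They do not state whether each sample came from a separate mouse, and p-values measure only the spread between these samples.

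Hmgb1 and Hmgb2 encode chromatin proteins that bend DNA. Released from stressed or dying cells, HMGB1 acts as an alarmin, a signal of tissue damage that is read by RAGE (encoded by Ager) and by toll-like receptors, and leads to NF-kB and MAP kinase signalling. Hmgn1 encodes a nucleosome-binding protein that can act as an alarmin through TLR4. Because release, location and redox state of these proteins are not read by mRNA counts, the values below describe transcripts alone.

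In RefSeq (GRCm38.p6), all 4 genes are protein coding. Hmgb1 (gene ID 15289) lies on chr5:149046702-149053057, Hmgb2 (gene ID 97165) on chr8:57511843-57515999, Hmgn1 (gene ID 15312) on chr16:96121588-96127725 and Ager (gene ID 11596) on chr17:34597460-34600937. The RefSeq table also holds 9 pseudogenes named after Hmgb1, and whether the Hmgb1 probe can tell them from the gene is not given in the sources used here. The 250 bases before 1 annotated transcription start of each gene are shown so that the genes counted at high and at low levels can be read beside their upstream sequence. They run 5′ to 3′ on the strand of the gene, at chr5:149053058-149053307 (minus strand), chr8:57511593-57511842 (plus strand), chr16:96127726-96127975 (minus strand) and chr17:34597600-34597849 (plus strand). The Ager window is not sequence before the gene as a whole: it begins 140 bases past the gene's first base and ends at a start that lies 390 bases inside it. Capitals mark CCAAT or its reverse complement ATTGG.
Hmgb1 window: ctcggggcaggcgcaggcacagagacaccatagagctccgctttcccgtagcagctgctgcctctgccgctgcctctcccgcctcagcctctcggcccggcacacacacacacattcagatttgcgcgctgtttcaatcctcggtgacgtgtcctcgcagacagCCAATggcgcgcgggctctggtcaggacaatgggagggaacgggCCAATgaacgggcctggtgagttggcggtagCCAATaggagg
Hmgb2 window: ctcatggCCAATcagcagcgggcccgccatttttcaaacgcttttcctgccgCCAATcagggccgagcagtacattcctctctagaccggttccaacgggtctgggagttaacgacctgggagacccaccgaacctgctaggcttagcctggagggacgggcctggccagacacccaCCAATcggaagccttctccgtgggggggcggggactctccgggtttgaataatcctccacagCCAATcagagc
Hmgn1 window: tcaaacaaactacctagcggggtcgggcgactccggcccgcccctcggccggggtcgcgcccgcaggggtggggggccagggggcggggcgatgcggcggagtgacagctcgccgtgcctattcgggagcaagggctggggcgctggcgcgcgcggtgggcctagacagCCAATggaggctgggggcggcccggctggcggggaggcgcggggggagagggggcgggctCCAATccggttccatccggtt
Ager window: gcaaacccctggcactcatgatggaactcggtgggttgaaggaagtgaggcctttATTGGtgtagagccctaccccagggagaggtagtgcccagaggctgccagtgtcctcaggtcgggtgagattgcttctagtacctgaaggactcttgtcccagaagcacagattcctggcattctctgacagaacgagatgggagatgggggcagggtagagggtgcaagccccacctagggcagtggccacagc

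CCAAT in either orientation occurred 3 times before Hmgb1, 4 times before Hmgb2, 2 times before Hmgn1 and 1 time in the internal Ager window. Of 32851 windows of this length in the RefSeq promoter table, 33.8% held it at least once. A second Hmgb1 window of the table, inside the gene (chr5:149051617-149051866), held 0 copies of it but 4 GGGCGG boxes and 39 CpG dinucleotides. The windows shown held 19, 14 and 30 CpG dinucleotides for Hmgb1, Hmgb2 and Hmgn1 and 3 for Ager, beside a median of 6 over all windows. A GGGCGG box (or CCGCCC on the other strand) was found 4 times in the window shown for Hmgn1, 1 time in that for Hmgb2 and 0 times in those shown for Hmgb1 and Ager, and 32.7% of all windows hold it. TATAAA (or TTTATA), held by 12.4% of all windows, was found in 0 of the 4 sequences shown. These matches are a description of letters and were not tested against the counts.

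Values are normalized counts, meaning probe counts that the authors had scaled within each sample to a set of housekeeping genes. Probes count whole molecules and not their length, but they can differ in efficiency, so ranks between genes are ranks of counts. Summed over the panel, probe counts lay between 64156 and 646446 per sample (91955 to 133098 with vehicle, 64156 to 646446 with pan and 165828 to 525997 with C1). Pan replicate 4 stood apart with the highest total, and all C1 totals were above all vehicle totals. In C1 against vehicle, treatment and the second age label cannot be told apart, since all C1 samples and none of the vehicle samples carry the older one.

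**Figure D1:**
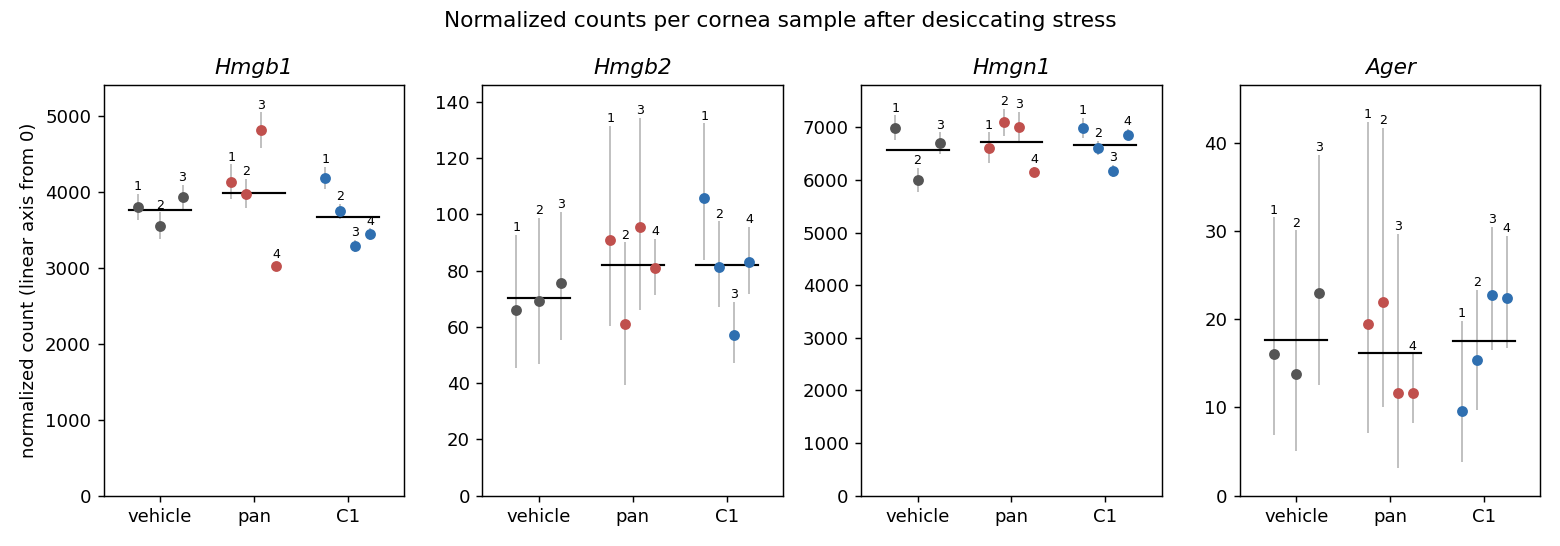
Normalized counts of the 4 genes on linear axes from 0. Each point is a sample with its replicate number, grey bars are exact 95% Poisson intervals that cover counting error only, and black lines are group means. The 3 groups overlap for every gene, with Hmgb1 lowest in pan replicate 4 at 3021.5 and Ager between 9.63 and 23.0 throughout.

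Hmgn1 was the highest of the 4 genes and ranked number 6 of 248 by its mean log2 value over the 11 samples. It had 6997.0, 5997.1 and 6700.1 normalized counts in vehicle replicates 1 to 3. Pan replicates 1 to 4 had 6614.9, 7093.8, 7009.8 and 6159.8, and C1 replicates 1 to 4 had 6985.7, 6610.4, 6173.4 and 6863.4. The groups overlapped throughout, with the lowest value in a vehicle sample and the highest in a pan sample, only 1.18 times apart. The means were 6564.7 ± 514 (SD, n = 3) with vehicle, 6719.6 ± 428 (SD, n = 4) after pan and 6658.3 ± 359 (SD, n = 4) after C1. Among the 131 panel genes whose mean log2 value reached 5, 0 genes had a smaller SD of log2 values within groups than Hmgn1 (0.094, against a median of 0.27).

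Hmgb1, the best known of these alarmins, ranked number 14 of 248. Vehicle replicates 1 to 3 had 3799.8, 3549.4 and 3930.6 normalized counts, pan replicates 1 to 4 had 4128.7, 3972.7, 4810.3 and 3021.5, and C1 replicates 1 to 4 had 4180.7, 3743.4, 3287.7 and 3447.1. Pan held both the highest and the lowest of the 11 samples, so the vehicle range lay inside the pan range. The means were 3759.9 ± 194 (SD, n = 3) with vehicle, 3983.3 ± 737 (SD, n = 4) after pan and 3664.7 ± 392 (SD, n = 4) after C1. The SD of log2 values was 0.075 with vehicle, 0.28 with pan and 0.15 with C1, while counting error alone would give 0.033, 0.033 and 0.020.

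Hmgb2, the paralog of Hmgb1 that is best known from dividing cells, was counted far less often and ranked number 114. It had 66.1, 69.1 and 75.7 normalized counts in vehicle replicates 1 to 3. Pan replicates 1 to 4 had 90.9, 61.0, 95.6 and 80.9, and C1 replicates 1 to 4 had 106, 81.3, 57.3 and 83.0. In each treatment 3 of 4 samples were above the highest vehicle sample and 1 of 4 was below the lowest, pan replicate 2 and C1 replicate 3. The means were 70.3 ± 4.89 (SD, n = 3) with vehicle, 82.1 ± 15.4 (SD, n = 4) after pan and 81.9 ± 19.9 (SD, n = 4) after C1. These values rest on 25 to 33 probe counts in pan replicates 1 to 3, on 257 in pan replicate 4 and on 30 to 46 in the vehicle samples. The vehicle SD of log2 values (0.099) was below the 0.24 that counting error alone would give, so the closeness of the 3 vehicle samples is finer than this depth resolves.

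Ager, the gene of RAGE, ranked number 153 and was the only one of the 4 with a mean log2 value under 5. It had 16.0, 13.8 and 23.0 normalized counts in vehicle replicates 1 to 3, 19.5, 22.0, 11.6 and 11.6 in pan replicates 1 to 4 and 9.63, 15.4, 22.7 and 22.5 in C1 replicates 1 to 4. The lowest value was in a C1 sample and the highest in a vehicle sample, and the groups overlapped. The means were 17.6 ± 4.80 (SD, n = 3) with vehicle, 16.2 ± 5.35 (SD, n = 4) after pan and 17.6 ± 6.27 (SD, n = 4) after C1. Only 4 to 14 probe counts lay behind the vehicle values and those of pan replicates 1 to 3, so that the 95% interval of pan replicate 3 ran from 3.16 to 29.7 normalized counts. In every sample Ager stayed above the median of the 62 lowest genes of the panel, by 1.5 times in vehicle replicate 2 up to 6.0 times in pan replicate 1. These genes were picked by their low means in the same samples and Ager is not among them, so this is no limit of detection. The counting interval of Ager held that median in vehicle replicate 2 (5.08 to 30.1 against 9.22) and in C1 replicate 1 (3.87 to 19.8 against 5.50). Its SD of log2 values was 0.38 with vehicle and 0.49 with pan, below the 0.50 and 0.54 of counting error alone, and 0.58 with C1, where counting error gives 0.35.

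**Figure D2:**
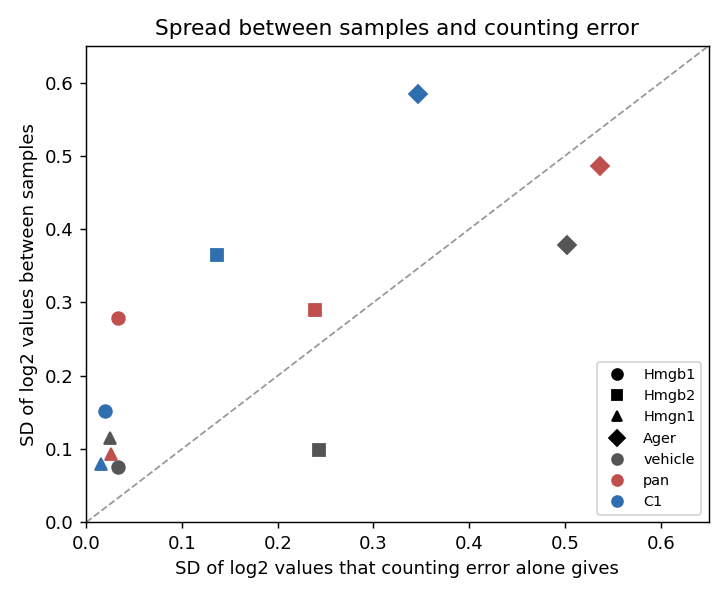
SD of log2 values between the samples of a group (vertical axis) against the SD that counting error alone gives (horizontal axis), for each gene (symbol) and group (colour). Points above the dashed line of equality vary more than counting error gives: Hmgb1 with pan lies at 0.28 against 0.033, while Ager with vehicle and pan and Hmgb2 with vehicle lie below the line.

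The factor from the housekeeping genes cancels when 2 genes of the same sample are compared. Hmgn1 exceeded Hmgb1 by a log2 difference of 0.80 ± 0.068 (SD, n = 3) with vehicle, 0.77 ± 0.21 (SD, n = 4) after pan and 0.87 ± 0.11 (SD, n = 4) after C1. It was largest in pan replicate 4 (1.03) and C1 replicate 4 (0.99) and smallest in pan replicate 3 (0.54). Hmgb2 lay below Hmgb1 by log2 differences of -5.74 ± 0.090 (SD, n = 3), -5.60 ± 0.33 (SD, n = 4) and -5.51 ± 0.24 (SD, n = 4) in the same order. The groups overlapped in both differences.

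The question of the design was whether either agonist changed corneal gene expression relative to vehicle. None of the 4 genes passed an adjusted p of 0.05 in either comparison or between the agonists, by limma over all 248 genes. In the whole panel 2.02% of genes passed with pan, 0% with C1 and 0.403% in C1 against pan, while 12.5%, 10.5% and 15.3% had an unadjusted p under 0.05, again with none of the 4 among them. The groups of each comparison overlapped for all 4 genes, where 10.9%, 10.1% and 8.06% of the panel did not overlap (2.42% higher and 8.47% lower with pan, 7.66% higher and 0.403% lower in C1 against pan). The comparisons with vehicle share the same 3 vehicle samples.

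With pan, Hmgb2 stood at 0.21 on the log2 scale relative to vehicle (standard error 0.24, adjusted p = 0.778), with a 95% interval from a 0.789-fold to a 1.69-fold level. Hmgb1 had 0.07 (standard error 0.23, adjusted p = 0.942), and 3 of 4 pan samples lay above the highest vehicle sample. Without pan replicate 4 the value for Hmgb1 was 0.19 and without pan replicate 3 it was -0.03. Hmgn1 had 0.03 (standard error 0.20, adjusted p = 0.945), with an interval from 0.743-fold to 1.41-fold. Because limma draws each gene's variance toward that of the panel, this interval is wider than the gene's own spread, which gave 0.891-fold to 1.18-fold without such moderation. Ager had -0.15 (standard error 0.33, adjusted p = 0.916), and its interval from 0.530-fold to 1.53-fold was the widest of the 4. The direction of Ager changed to 0.06 without vehicle replicate 3 and to 0.32 with background subtracted. The two-sided exact permutation tests of pan against vehicle with all samples gave p = 0.686 for Hmgb1, 0.343 for Hmgb2, 0.571 for Hmgn1 and 0.686 for Ager. In these tests 3 samples against 4 cannot give less than 0.0571.

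With C1, Hmgb2 stood at 0.19 on the log2 scale relative to vehicle (standard error 0.22, adjusted p = 0.787), with an interval from 0.798-fold to 1.63-fold. This was close to its value with pan, which rests on the same vehicle samples. The value for Hmgb2 was 0.05 without C1 replicate 1 and 0.35 without C1 replicate 3. Hmgb1 had -0.04 (standard error 0.14, adjusted p = 0.914) and an interval from 0.778-fold to 1.21-fold. Hmgn1 had 0.02 (standard error 0.12, adjusted p = 0.939), with an interval from 0.829-fold to 1.24-fold, the narrowest of the 12 differences. Ager had -0.05 (standard error 0.35, adjusted p = 0.941), and 2 of 4 C1 samples were above the vehicle mean. The direction of Ager changed to 0.16 without vehicle replicate 3 and to 0.21 without C1 replicate 1. The exact permutation p was 0.686 for Hmgb1, 0.457 for Hmgb2, 0.8 for Hmgn1 and 0.8 for Ager.

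The agonists were given at the same dose for the same time, and 1 pair of compounds was compared. All C1 samples carry the older second age label but of the pan samples only replicate 4 does, so treatment and this label are largely confounded here too. The totals of pan replicates 1 to 3 (64156 to 101351) also lay below the lowest C1 total (165828). For Hmgb1 the log2 difference of C1 minus pan was -0.11 (standard error 0.20, adjusted p = 0.776), with a 95% interval from -0.56 to 0.35. The difference was -0.02 (interval -0.57 to 0.54) for Hmgb2, -0.01 (interval -0.38 to 0.35) for Hmgn1 and 0.10 (interval -0.69 to 0.89) for Ager, with adjusted p-values of 0.975, 0.971 and 0.897. A difference between the agonists was thus not detected in these genes, but for Ager the interval still holds changes of 0.619-fold and 1.85-fold.

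**Figure D3:**
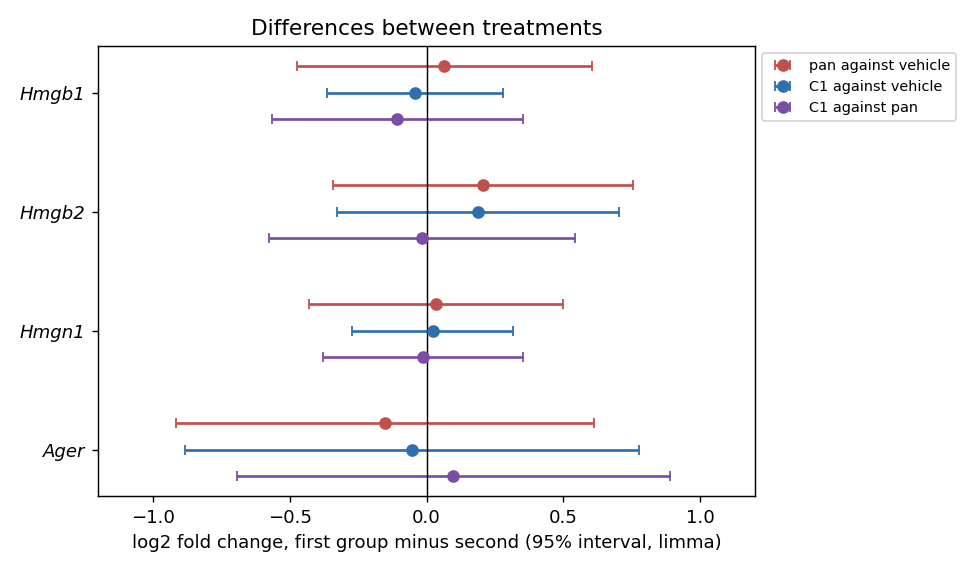
Log2 fold changes (first group minus second) of the 4 genes in the 3 comparisons, with 95% intervals from limma. All 12 intervals hold 0, and they are widest for Ager, from -0.92 to 0.61 with pan.

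Hmgb1 was examined further beside the total count, because its values in the deepest samples were low. The samples fell into 7 with totals of 64156 to 165828 and 4 with totals of 311731 to 646446, pan replicate 4 and C1 replicates 2 to 4. Hmgb1 had log2 values of 11.79 to 12.23 in the former and of 11.56 to 11.87 in the latter. For Hmgn1 the ranges were 12.55 to 12.79 and 12.59 to 12.74, for Hmgb2 they were 5.93 to 6.73 and 5.84 to 6.37, and for Ager 3.27 to 4.53 and 3.54 to 4.50. Within the 7 samples Hmgb1 had a Pearson r of -0.192 with the log2 total (exact permutation p = 0.700) and a Spearman rho of -0.143 (exact permutation p = 0.783). Without the 2 samples farthest from the median total, r was -0.457. Over the 4 genes the adjusted p of r was 0.934 to 0.938, and the 4 deeper samples are too few for a correlation of their own. With log2 total counts as a covariate, the C1 difference of Hmgb1 from vehicle changed from -0.04 to 0.21 (standard error 0.17, adjusted p = 0.635 from limma). The division into 7 and 4 samples was chosen after the values were seen. All 4 deeper samples carry the older second age label, and of the 7 others only C1 replicate 1 does. No vehicle sample is among the deeper ones. Total count, this label and treatment can therefore hardly be told apart in this division.

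The panel genes whose profile over the 11 samples was nearest to each alarmin gene were found by the root mean square difference of log2 values, each gene centred on its own mean, among 130 other genes whose mean log2 value reached 5. Among the 3 genes nearest to Hmgb1 were Tollip, an adaptor that restrains toll-like receptor signalling (0.077), and Map3k7, the kinase TAK1 (0.086), where the median over genes was 0.33. Hmgn1 was nearest to Hif1a, the oxygen-regulated transcription factor (0.066), Map2k1, the kinase MEK1 (0.090), and Ptk2, focal adhesion kinase (0.092), with a median of 0.28. For Hmgb2 the nearest genes were farther away: Prkca, a protein kinase C (0.20), Il1rn, the interleukin 1 receptor antagonist (0.20), and Il1rap, a co-receptor of interleukin 1 (0.22). Counting error alone gives the log2 values of Hmgb2 an SD of 0.21 over the 11 samples. The alarmin genes were not among each other's 3 nearest genes. Hmgb2 ranked number 40 and Hmgn1 number 10 for Hmgb1, while Hmgb1 ranked number 8 and Hmgn1 number 11 for Hmgb2. For Hmgn1, Hmgb1 ranked number 15 and Hmgb2 number 58. The values are descriptive, and all samples share the normalization by housekeeping genes.

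Other genes of the pathway were read from lists. Of 7 other receptors, co-receptors and adaptors of HMGB1, none passed an adjusted p of 0.05 in any comparison. Their median log2 fold change was -0.38 with pan, -0.01 with C1 and 0.35 in C1 against pan, beside -0.20, -0.02 and 0.23 over the panel. The largest difference with pan was that of Cxcr4, a chemokine receptor that also binds HMGB1 in complex with CXCL12, with 11.8 ± 5.04 normalized counts (SD, n = 4) against 30.2 ± 14.9 (SD, n = 3) with vehicle (log2 fold change -1.34, standard error 0.46, adjusted p = 0.245). In C1 against pan Cxcr4 had 1.09 (standard error 0.47, adjusted p = 0.313). With C1 the largest was Tlr2, a toll-like receptor, with 0.35 (standard error 0.17, adjusted p = 0.452), which became -0.09 with the total count as a covariate, while Cxcr4 in C1 against pan became 0.54.

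Of 15 kinases, GTPases and transcription factors downstream of RAGE, none passed in any comparison, and their medians were -0.07 with pan, -0.04 with C1 and 0.04 in C1 against pan. The largest differences were those of Mapk3, the kinase ERK1, with pan (-0.48, standard error 0.28, adjusted p = 0.517), Jun, a subunit of AP-1, with C1 (0.60, standard error 0.19, adjusted p = 0.371), and Rela, an NF-kB subunit, in C1 against pan (-0.47, standard error 0.28, adjusted p = 0.452), which became -0.08 with the total count as a covariate. With C1, all samples were above vehicle for 2 of the 15 genes, Jun and Mapk8, and below it for 1, Hras1, where 6.05% and 4.03% of the panel were so placed. Mapk8 and Hras1 are named because their values were seen, with log2 fold changes of 0.21 and -0.16.

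Of 4 other alarmin genes (Il1a, Il18, Hspb1 and Tslp), none passed. Il1a, which encodes interleukin 1 alpha, had the largest difference in each comparison, with log2 fold changes of 1.26 with pan (adjusted p = 0.239), 0.57 with C1 (adjusted p = 0.436) and -0.70 in C1 against pan (standard error 0.37, adjusted p = 0.365). With log2 total counts as a covariate these became 1.35, which passed (adjusted p = 0.0418), 1.07 and -0.28. The list medians were -0.03, 0.02 and 0.05. Of 9 genes induced by HMGB1 signalling in inflammation, 1 rose with pan, where 0.806% of the panel did: Cxcl1, a chemokine that attracts neutrophils, with 49.5 ± 8.55 normalized counts (SD, n = 4) against 13.9 ± 4.05 (SD, n = 3) with vehicle (1.86, standard error 0.29, adjusted p = 0.0181). None passed in the other comparisons. This call was lost in 5 of 10 other settings that kept all samples, and in 5 of 7 fits that left out 1 sample (vehicle replicate 2 or 3, or pan replicate 1, 2 or 4), with adjusted p up to 0.245. The log2 fold change of Cxcl1 stayed positive, at 1.59 to 2.01 leaving out 1 sample. With all samples it lay between 1.03 (20 normalized counts added) and 3.37 (background subtracted). The median of this list was 0.03 with pan, 0.56 with C1 and 0.37 in C1 against pan. The largest differences were 1.31 for Cxcl1 with C1 (standard error 0.79, adjusted p = 0.567) and -1.05 for Cxcl2, another such chemokine, in C1 against pan (standard error 0.34, adjusted p = 0.256). The former rested on C1 replicate 4, without which it was 0.56. The latter became -2.91 with background subtracted and -0.41 with 20 normalized counts added. Cxcl2 in C1 replicates 1 to 3 lay little above the subtracted background (6.878, 7.011 and 8.255 against 5.503, 5.609 and 7.223). The subtracted values thus lie near the floor of 1, and the size of -2.91 depends on it.

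**Figure D4:**
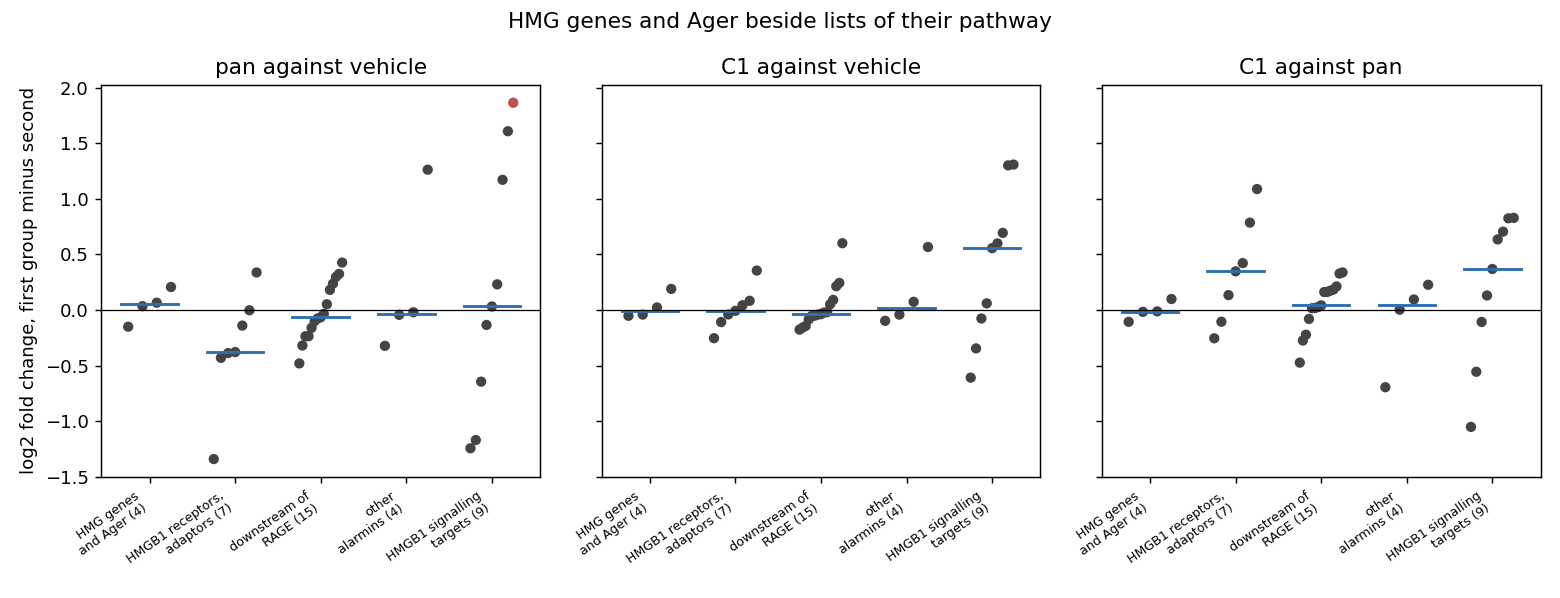
Log2 fold changes (first group minus second) of the 4 genes and of the 4 lists, one point per gene, with blue lines at list medians and red for an adjusted p under 0.05 in limma. The HMG genes and Ager lie between -0.15 and 0.21 in all 3 comparisons, and Cxcl1 with pan is the only red point, at 1.86.

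Leukocyte genes were counted in all groups. The summed level of 9 macrophage and dendritic cell genes was 376 to 465 normalized counts with vehicle, 232 to 385 with pan and 413 to 556 with C1, and at most 2 of the 9 genes were at or under 3 counts in a sample. In C1 against pan all 9 had a positive log2 fold change, with a median of 0.77 beside 0.23 over the panel, but none passed an adjusted p of 0.05, and the largest was C1qb with 0.96 (adjusted p = 0.256). Cd86 had the largest difference with pan (-0.93, adjusted p = 0.550), which was -0.38 without pan replicate 3. With C1 it was that of Trem2 (adjusted p = 0.731), whose means of 3.30 with vehicle and 4.79 with C1 are too low for a fold: only 1 of the 11 samples, C1 replicate 2, had more Trem2 than the median of the 62 lowest genes. The 5 T cell genes summed to 40.0 to 48.4 with vehicle, 19.5 to 31.7 with pan and 32.3 to 46.7 with C1. In at least 1 pan sample all 5 were at or under 3 counts. These genes did not move together. With pan 2 had a positive and 3 a negative log2 fold change, and with C1 it was 3 and 2. Cd40lg had 6.49 to 11.6 normalized counts with pan and 6.31 to 7.34 with C1, higher than every vehicle sample (2.305 to 6.006). Neither difference passed, and 0 of 3 vehicle samples exceeded the median of the 62 lowest genes, so no size is given. Ifng, which encodes interferon gamma, fell with pan, with 2.44 to 3.25 normalized counts against 15.6 ± 3.29 (SD, n = 3) with vehicle (adjusted p = 0.00246). It passed in the other settings that gave it a value except with 20 normalized counts added (adjusted p = 0.0917). No pan sample was above the median of the 62 lowest genes, and pan replicates 1 to 3 rest on 1 count each, so no size of the fall is given. With C1 Ifng had 3.61 to 9.50 normalized counts (adjusted p = 0.211), also with 0 of 4 samples above that median, and passed with background subtracted (adjusted p = 0.000357), where all treated samples lie at the floor of 1. Cd4 had the largest difference in C1 against pan (adjusted p = 0.157), with 6.88 to 13.4 against 2.44 to 5.66 normalized counts, and only 1 of 4 pan samples was above the median of the lowest genes. The 2 neutrophil genes summed to at most 27.7 in any sample, and none passed. Cxcr1 had the larger difference of them in each comparison (adjusted p = 0.550, 0.787 and 0.562), but 0 of 8 treated samples were above the median of the lowest genes. Its vehicle samples had 2.00, 18.4 and 18.1 normalized counts, and without vehicle replicate 1 the comparison with pan passed (adjusted p = 0.0143). In a bulk sample fewer cells of a type and less RNA per cell cannot be told apart, and the part of leukocytes in the HMG values was not tested.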

How the data were processed

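RNA of 11 cornea samples was counted with the NanoString nCounter mouse Inflammation panel. The authors deposited 2 tables of log2 normalized counts, pan with vehicle and C1 with vehicle, which had been scaled to housekeeping probes (their geometric mean) with the ROSALIND software. The vehicle columns were identical in both tables (largest difference 0). Columns with the authors' own means, fold changes and p-values were not used. Probe counts were recovered by dividing each sample's 248 values by their common step (tolerance 0.01 of a count). Counting intervals are exact Poisson intervals at 95% and cover counting error only.

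Pairs of groups were compared in R 4.3.3 with the lmFit and eBayes functions of limma 3.58.1, without covariates, filter or pseudocount, with Benjamini-Hochberg adjustment over 248 genes and a threshold of 0.05. The fit was tested on simulated data. Differences of means were also tested by two-sided exact permutation. Python 3.11.15, numpy 2.4.6, scipy 1.17.1, pandas 2.3.3 and matplotlib 3.10.9 were used. Promoter sequences came from RefSeq tables (GRCm38.p6), in which 4 of 4 genes were matched by gene ID. Named were the 4 genes, in each of 7 lists the genes that passed and the gene with the largest difference, and the 3 genes nearest to each gene but Ager, of which 1 is not reported here. Members and lists were chosen with earlier results of these data known. Alternatives were limma without moderation, with a mean-dependent or robust prior variance, median centring, only genes whose mean log2 value reached 5, 20 normalized counts added, background subtraction (the median of the 62 lowest genes, floor 1), all 3 groups in one fit, voom weights, the log2 total count as a covariate, the replicate number as a block, and each sample left out.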

Additional observations from a re-analysis of the deposited data

How the results depend on the processing

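The 12 log2 fold changes of Hmgb1, Hmgb2, Hmgn1 and Ager had 217 values under the alternatives, of which 0 passed an adjusted p of 0.05 by limma (lowest 0.424, lowest unadjusted p 0.0802) and 27 changed direction. With background subtracted Ager became 0.324 with pan, 0.096 with C1 and -0.228 in C1 against pan. Median centring moved the median of all genes by -0.071 with C1 and by -0.139 in C1 against pan. With it Hmgn1 with C1 became -0.049 and Ager in C1 against pan -0.041. With log2 total counts as a covariate Hmgb1 with C1 became 0.207, Tlr2 with C1 -0.086, and Hmgb1, Hmgb2 and Hmgn1 in C1 against pan 0.098, 0.081 and 0.039. Leaving out 1 sample gave, with pan, -0.032 to 0.191 for Hmgb1, 0.125 to 0.341 for Hmgb2, -0.029 to 0.082 for Hmgn1 and -0.319 to 0.059 for Ager. With C1 the ranges were -0.107 to 0.008, 0.054 to 0.349, -0.042 to 0.069 and -0.211 to 0.208, and in C1 against pan -0.233 to -0.009, -0.153 to 0.144, -0.054 to 0.023 and -0.053 to 0.360, in the same order. The cause of these changes was not tested. Ager had no value among the genes whose mean log2 value reached 5.

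The 5 genes of the panel called with pan became 2 without moderation, 1 among genes whose mean log2 value reached 5, 2 with 20 normalized counts added, 3 with background subtracted, 8 with the covariate and 1 to 7 leaving out 1 sample. The 0 genes with C1 (26 at an unadjusted p under 0.05) became 2 with a mean-dependent prior variance, 4 among genes whose mean log2 value reached 5, 1 with background subtracted and 0 to 0 leaving out 1 sample. The 1 gene in C1 against pan became 0 with a mean-dependent or robust prior variance, median centring, all 3 groups in one fit, voom weights or the covariate, and 0 to 1 leaving out 1 sample. Of the 3 genes nearest to each alarmin gene, 1 to 3 were kept when a sample was left out. Deviations from the group means had correlations of -0.054 to 0.570 between samples sharing a replicate number. The highest were in C1 against pan, for replicates 1 (0.513) and 4 (0.570). Correlations between samples with unlike numbers were not computed, so whether the numbers pair samples was not tested. With the replicate block Hmgb1 had 0.191 with pan and -0.014 with C1, and 5, 0 and 1 genes were called. Counts of 4 to 14 limit Ager in the shallower samples.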
